A study of Mus musculus with 12 samples.

Results

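The 9 genes described here, Slc1a5, Slc38a2, Glul, Gls2, Glud1, Got1, Got2, Gpt and Gpt2, encode proteins that take up, make and break down glutamine and that move amino groups between amino acids. They were chosen by name, as the glutamine, glutamate and transaminase genes of interest, from the 16411 genes in the deposited table, and all 9 were among the 13191 genes tested. RNA was sequenced from 6 HER2-driven mammary tumors and from 6 samples of benign mammary tissue of MMTV-Neu-NDL-YD5 mice. Both groups came from female heterozygous transgenic mice on an FVB background, so the benign tissue also carried the transgene, an activated Neu (rodent HER2) driven by the MMTV promoter, which is active in mammary epithelium. For sequencing, the benign tissue had no visible tumor and was taken from mice other than those that gave the tumors, and the labels name no agent and no age for either group.

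Glutamine is brought into cells by sodium-dependent carriers, loses its amide nitrogen to become glutamate through glutaminase, and is rebuilt from glutamate and ammonia by glutamine synthetase. Glutamate then yields the TCA cycle intermediate 2-oxoglutarate either through glutamate dehydrogenase or through transaminases, which pass the amino group on to form aspartate or alanine. In proliferating tumor cells this route is known as a source of carbon and nitrogen, while adipose tissue and skeletal muscle are known for making and releasing glutamine and alanine.

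Total counts ranged from 5240853 to 8588567 per sample. Erbb2, the gene of HER2, lay between 44.8 and 73.7 CPM (counts as a share of the library, put on 1 scale by edgeR's TMM method) in benign tissue and between 1989 and 16634 CPM in tumors, a log2 fold change of 7.03. Benign samples 3, 4 and 6 stood apart: 10 skeletal muscle markers took 5.02%, 2.89% and 7.11% of their counts, against 0.0034% to 0.0397% in benign samples 1, 2 and 5 and at most 0.0159% in a tumor. Benign samples 4 and 6 also held the most Ucp1, the uncoupling protein of brown fat, at 1434 and 217 CPM. The results for the glutamine genes are therefore given with all 12 samples and again without benign samples 3, 4 and 6. Adipocyte markers fell in 6 of 6 cases in the tumors, from a summed 7879–17934 CPM to 26.5–113 CPM. Of 5 luminal epithelial markers, 4 rose and 1 fell, with log2 fold changes from -4.74 to 2.24. Their sum went from 834–2162 CPM to 2099–3909 CPM. Basal epithelial (5 of 5), fibroblast (4 of 4) and endothelial (3 of 3) markers fell too, from a summed 429–1121, 1919–4531 and 439–811 CPM to 22.9–88.8, 194–411 and 63.9–77.6 CPM. In whole tissue, fewer cells of a type and less RNA per cell cannot be told apart.

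Of the 9 genes, 5 were lower in tumors (Slc1a5, Glul, Glud1, Gpt and Gpt2) and 1 was higher (Got2), while Slc38a2, Gls2 and Got1 did not pass the test, the two-sided quasi-likelihood test of edgeR at a Benjamini-Hochberg adjusted p under 0.1. Among all genes tested, 34.8% were lower and 28.2% higher, against 55.6% and 11.1% of these 9 genes. Their median log2 fold change was -1.54, and that of all genes was -0.062. In the 5 genes that fell, every tumor lay below every benign sample, a separation that 21.2% of all genes tested showed in that direction. Without benign samples 3, 4 and 6, the same 5 genes were lower (28.7% of 13604 genes were), and Got1 joined Got2 as higher (26.7% of genes were).

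**Figure D1:**
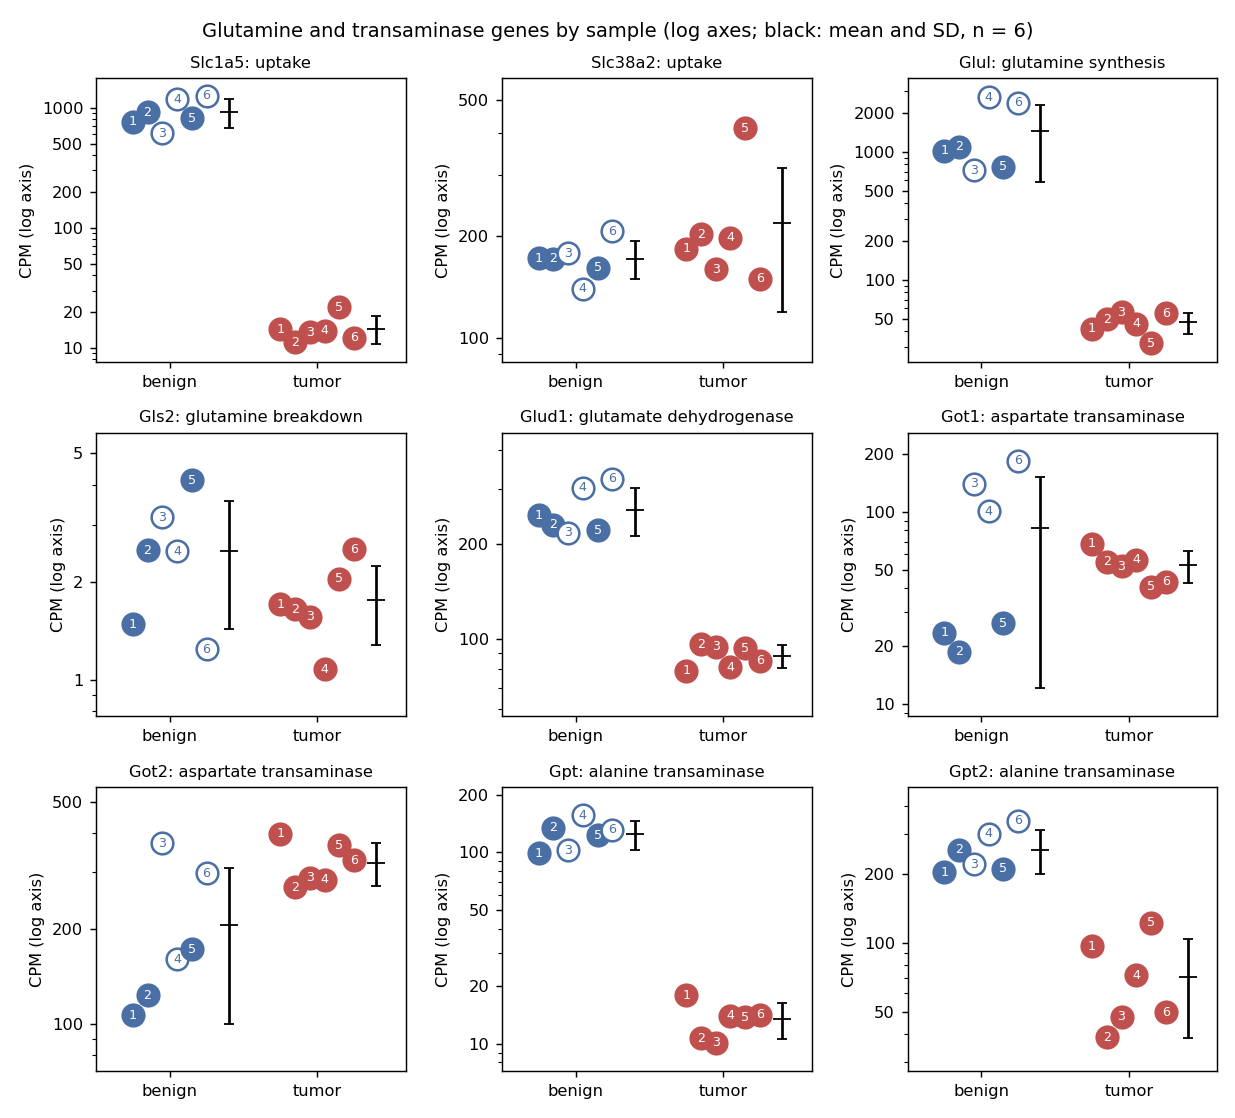
CPM of each of the 9 genes in every sample, on log axes, with numbers giving the replicate and black bars the mean ± SD of 6 samples. Open circles are benign samples 3, 4 and 6, the ones with skeletal muscle transcripts: Slc1a5, Glul, Glud1, Gpt and Gpt2 show no overlap between benign tissue (blue) and tumors (red), while Got1 in tumors lies between the open and the filled benign circles.

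Slc1a5 (ENSMUSG00000001918, GRCm38 chr7:16781340-16798274, plus strand) encodes ASCT2, a sodium-dependent exchanger of neutral amino acids that is known as a main entry route for glutamine. In benign samples 1 to 6 it stood at 762, 916, 611, 1177, 813 and 1247 CPM, and in tumors 1 to 6 at 14.3, 11.1, 13.5, 13.9, 21.9 and 12.2 CPM. The lowest benign sample was thus far above the highest tumor, tumor 5. The means were 921 ± 247 CPM (SD, n = 6) and 14.5 ± 3.80 CPM (SD, n = 6), 63.6-fold lower in tumors, with a log2 fold change of -5.99 (SE 0.26, edgeR adjusted p = 3.55e-09). This was the largest fall among the 9 genes, and it was -5.80 without benign samples 3, 4 and 6. The fall was counted on 4114 to 7675 reads per benign sample and 81 to 171 reads per tumor.

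Slc38a2 (ENSMUSG00000022462, chr15:96687392-96699730, minus strand) encodes SNAT2, a sodium-coupled carrier of small neutral amino acids whose expression is known to respond to amino acid shortage. Benign tissue held 140 to 206 CPM (median 171) and tumors held 149 to 412 CPM (median 190). The groups overlapped, and tumor 5 alone reached 412 CPM. The means were 171 ± 21.7 and 217 ± 97.6 CPM (SD, n = 6 each), a log2 difference of 0.34 (SE 0.23, edgeR adjusted p = 0.216), which did not pass the test. Tumor 5 carried much of it, as the value without that tumor was 0.12. Leaving out tumor 3 gave 0.49 (adjusted p = 0.0995) and leaving out tumor 6 gave 0.50 (adjusted p = 0.0866) by the same test.

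The order of the 2 carriers differed between the groups. Slc1a5 counts were 3.44 to 8.42 times those of Slc38a2 in benign tissue and 0.0532 to 0.0850 times those of Slc38a2 in tumors. The log2 ratio of Slc1a5 to Slc38a2 was lower by 6.24 in tumors, in 6 of 6 of them (exact permutation test over every regrouping of the 12 samples into 6 and 6, two-sided, p = 0.00216, adjusted p = 0.00325 over 6 ratios). The p-value is the smallest these regroupings can give. A ratio within a sample does not depend on the scaling between samples, but it shows unequal change only.

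Glul (ENSMUSG00000026473, chr1:153899944-153909723, plus strand) encodes glutamine synthetase, the enzyme that makes glutamine. In benign samples 1 to 6 it stood at 1018, 1103, 722, 2680, 766 and 2416 CPM, and in tumors at 32.1 to 56.0 CPM (median 47.6). Benign samples 4 and 6 were more than double any other benign sample, and no tumor came near the lowest of them. The means were 1451 ± 866 and 46.6 ± 8.94 CPM (SD, n = 6 each), 31.1-fold lower in tumors, with a log2 fold change of -4.96 (SE 0.39, edgeR adjusted p = 3.32e-07) and of -4.33 without benign samples 3, 4 and 6. Benign samples 4 and 6 also had the highest summed adipocyte markers, at 17934 and 14330 CPM against 7879 to 10820 CPM in the other 4 benign samples. As a share of counts, benign sample 6 (1.144%) barely exceeded benign sample 2 (1.138%), while benign sample 4 held 1.508%. The TMM factors of samples 4 and 6, 0.863 and 0.853, were the lowest of any sample and raise their CPM. On the CPM scale, Slc1a5, Glud1 and Gpt2 were highest in the same pair of samples. The part of adipocyte, basal epithelial, fibroblast and endothelial content in these falls was not tested.

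Gls2 (ENSMUSG00000044005, chr10:128194457-128210004, plus strand), the liver-type glutaminase that opens glutamine to glutamate, was barely detected. Benign tissue held 1.24 to 4.12 CPM, from 7 to 33 counts, and tumors held 1.08 to 2.52 CPM, from 8 to 23 counts. The groups overlapped, with benign samples 3 and 5 above every tumor and tumor 4 below every benign sample. The difference of means, 2.50 ± 1.07 against 1.76 ± 0.486 CPM (SD, n = 6 each), gave a log2 value of -0.51 (SE 0.32, edgeR adjusted p = 0.194), and it passed the test only when benign sample 6 was left out (-0.64, adjusted p = 0.0970).

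Within samples, the log2 ratio of Glul to Gls2 was lower by 4.35 in tumors, in 6 of 6 of them (exact permutation, p = 0.00216, adjusted p = 0.00325). Glul counts were 183 to 1815 times those of Gls2 in benign tissue and 15.2 to 39.8 times in tumors. In both groups the low Gls2 counts, 7 to 33 in benign tissue and 8 to 23 in tumors, limit the precision.

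Glud1 (ENSMUSG00000021794, chr14:34310727-34345265, plus strand) encodes the mitochondrial glutamate dehydrogenase, which releases the amino group of glutamate as ammonia. It ranged from 218 to 323 CPM in benign tissue (median 239) and from 79.4 to 96.4 CPM in tumors (median 89.4). Tumors were tightly grouped, with a coefficient of variation of 8.27%, and all lay below the benign range. The means were 257 ± 44.8 and 88.4 ± 7.32 CPM (SD, n = 6 each), 2.91-fold lower in tumors, with a log2 fold change of -1.54 (SE 0.12, edgeR adjusted p = 3.95e-07) and of -1.36 without benign samples 3, 4 and 6.

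Gpt (ENSMUSG00000022546, chr15:76695716-76699686, plus strand) encodes the cytosolic alanine transaminase, which exchanges the amino group between glutamate and alanine. Benign samples 1 to 6 held 98.9, 134, 103, 156, 123 and 131 CPM, and tumors 1 to 6 held 17.9, 10.7, 10.1, 14, 13.8 and 14.2 CPM. The benign and tumor ranges were far apart. The means were 124 ± 21.3 and 13.5 ± 2.81 CPM (SD, n = 6 each), 9.24-fold lower in tumors, with a log2 fold change of -3.21 (SE 0.17, edgeR adjusted p = 9.80e-09) and of -3.10 without benign samples 3, 4 and 6.

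Gpt2 (ENSMUSG00000031700, chr8:85492576-85527560, plus strand) encodes the mitochondrial alanine transaminase. Benign tissue held 204 to 344 CPM (median 239), and tumors 1 to 6 held 96.5, 38.6, 47.5, 72.1, 123 and 49.6 CPM. All tumors were below all benign samples, but they differed among themselves, with a coefficient of variation of 46.0%, and tumors 5 and 1 were the highest. The means were 257 ± 56.1 and 71.2 ± 32.7 CPM (SD, n = 6 each), 3.61-fold lower in tumors, with a log2 fold change of -1.85 (SE 0.28, edgeR adjusted p = 9.34e-05) and of -1.62 without benign samples 3, 4 and 6. The cytosolic form fell further than the mitochondrial one: the log2 ratio of Gpt to Gpt2 was lower by 1.26 in tumors, in 6 of 6 of them (exact permutation, p = 0.00216, adjusted p = 0.00325). Gpt2 and Glud1, both mitochondrial, did not differ in their change beyond the spread between tumors (log2 ratio lower by 0.42, exact permutation adjusted p = 0.184).

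**Figure D2:**
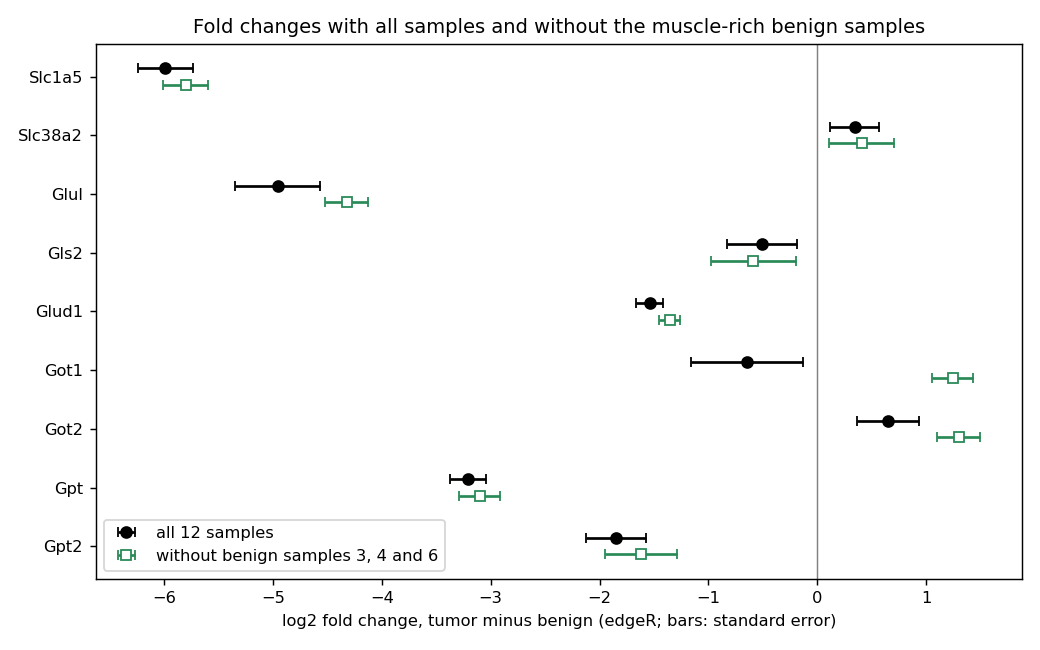
Log2 fold change, tumor minus benign, of the 9 genes with all 12 samples and without benign samples 3, 4 and 6, with bars for the standard error. Slc1a5, Glul, Gpt, Gpt2 and Glud1 lie on the same side with either set of samples, from -5.99 to -1.36, and Got1 moves from -0.64 to 1.25.

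Got1 and Got2 encode the cytosolic and the mitochondrial aspartate transaminase, which interconvert glutamate and oxaloacetate with 2-oxoglutarate and aspartate and which both serve the malate-aspartate shuttle. They were the members whose values depended most on which benign samples were used. Got1 (ENSMUSG00000025190, chr19:43499752-43524605, minus strand) stood at 23.5, 18.7, 140, 101, 26.3 and 184 CPM in benign samples 1 to 6, and at 68.0, 55.0, 52.2, 56.3, 40.8 and 43.1 CPM in tumors 1 to 6. Every tumor lay above benign samples 1, 2 and 5 and below benign samples 3, 4 and 6. With all 12 samples the means were 82.2 ± 70.2 and 52.6 ± 9.86 CPM (SD, n = 6 each), a log2 difference of -0.64 (SE 0.52, edgeR adjusted p = 0.307) that did not pass the test. Against benign samples 1, 2 and 5 alone, at 22.9 ± 3.84 CPM (SD, n = 3), tumors were 2.30-fold higher, a log2 fold change of 1.25 (SE 0.19, edgeR adjusted p = 4.62e-04). When a score of the muscle markers and Ucp1 entered the fit of all 12 samples, the value was 1.5 (edgeR adjusted p = 0.0169). The muscle score was a mean of log2 CPM, and tumors varied in these markers too. Their sum ran from 0.843 CPM in tumor 3 to 151 CPM in tumor 5, and from 33.0 to 89063 CPM in benign tissue. Apart from tumor 5, every tumor lay below every benign sample, so group and muscle content are only partly separable in that fit.

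Got2 (ENSMUSG00000031672, chr8:95864134-95888547, minus strand) stood at 107, 123, 370, 160, 172 and 299 CPM in benign samples 1 to 6, and at 397, 269, 288, 285, 365 and 328 CPM in tumors 1 to 6. Benign samples 3 and 6 reached the tumor range, and the other 4 benign samples lay below every tumor. The means were 205 ± 105 and 322 ± 50.5 CPM (SD, n = 6 each), 1.57-fold higher in tumors, with a log2 fold change of 0.65 (SE 0.28, edgeR adjusted p = 0.0666). The call did not hold without benign sample 4 (0.59, adjusted p = 0.124) or without benign sample 5 (0.60, adjusted p = 0.118) in the same test. Against benign samples 1, 2 and 5 alone, at 134 ± 34.0 CPM (SD, n = 3), all 6 tumors were higher, 2.40-fold on average, with a log2 fold change of 1.30 (SE 0.20, edgeR adjusted p = 4.43e-04). Separation of that kind, with every tumor above benign samples 1, 2 and 5, was seen in 18.7% of the 13604 genes tested without benign samples 3, 4 and 6. Among benign samples, Got1 was higher in samples 3, 4 and 6 than in samples 1, 2 and 5. Got2 followed muscle content less closely. Benign sample 4, with 2.89% muscle counts, held 160 CPM of Got2, and benign sample 5, with 0.0397%, held 172 CPM. The part of muscle content in the levels of the benign samples was not tested.

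**Figure D3:**
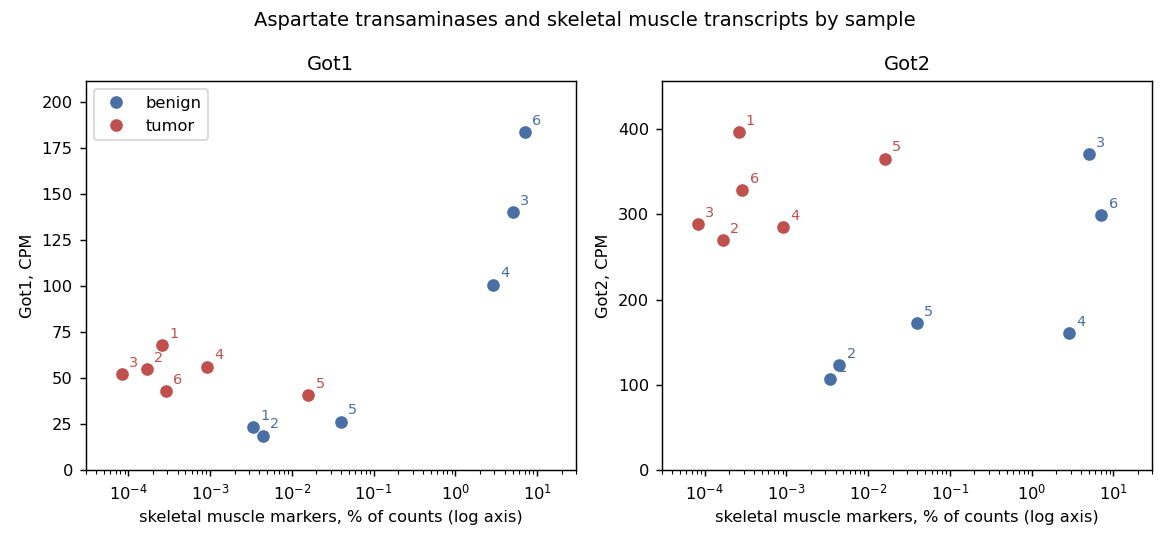
CPM of Got1 and of Got2 (linear axis) against the percent of each sample's counts from 10 skeletal muscle markers (log axis), in 6 benign samples (blue) and 6 tumors (red). Benign samples 3, 4 and 6, at 2.89% to 7.11% muscle counts, hold 101 to 184 CPM of Got1, while benign samples 1, 2 and 5 hold 18.7 to 26.3 CPM.

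Within samples, the log2 ratio of Got1 to Got2 ranged from -2.72 to -0.67 in benign tissue and from -3.16 to -2.29 in tumors. The groups overlapped, and the difference of -0.89 did not pass 0.05 (exact permutation, p = 0.0714, adjusted p = 0.0857). It was -0.086 without benign samples 3, 4 and 6 (adjusted p = 0.750, exact permutation over 84 regroupings, whose smallest p can be 0.0119). Leaving out benign sample 2 or benign sample 5 took it to -1.09 in each case, past the threshold.

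Got2 and Glud1, which both act on glutamate in the mitochondrion, were called in opposite directions. Got2 counts were 0.432 to 1.70 times those of Glud1 in benign tissue and 2.79 to 4.99 times in tumors. The ratio was higher in 6 of 6 tumors than in any benign sample, benign sample 3 included, 4.96-fold on average (log2 difference 2.31, exact permutation, p = 0.00216, adjusted p = 0.00325). Without benign samples 3, 4 and 6 it was 2.68.

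**Figure D4:**
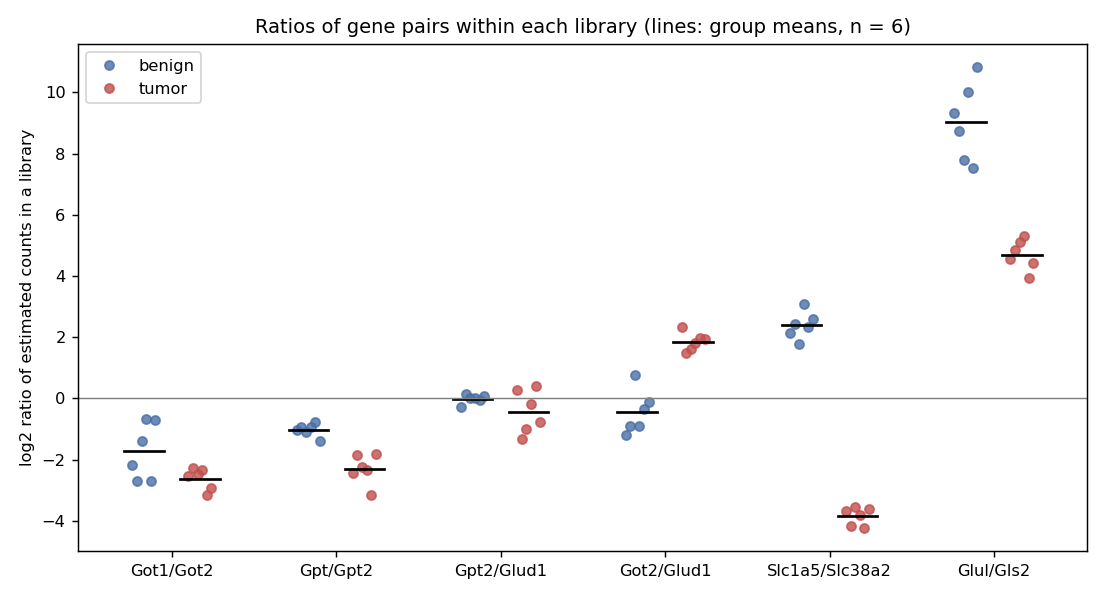
Log2 ratio of the counts of 2 genes within each sample, for the 6 pairs tested, in 6 benign samples and 6 tumors. Tumors lie wholly below benign tissue for Slc1a5/Slc38a2, Glul/Gls2 and Gpt/Gpt2 and wholly above it for Got2/Glud1, and the groups overlap for Got1/Got2 and Gpt2/Glud1.

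Levels of different genes were compared per length, as mean CPM per kilobase of the exons of each gene in the GENCODE M21 annotation of GRCm38. In benign tissue Glul was highest at 501 ± 299 (SD, n = 6), followed by Slc1a5 at 333 ± 89.4, and these genes overlapped in their ranges. Got2 (81.2), Glud1 (75.9), Gpt2 (70.5) and Gpt (61.9) followed within their spread of each other, then Got1 (40.0), whose range ran through all of these, and Slc38a2 (36.7), and Gls2 was last at 0.927. In tumors Got2 came first at 127, with its lowest tumor, 106, above the highest value of any other member. Slc38a2 (46.6) came next, followed by Glud1 (26.1), Got1 (25.6), Gpt2 (19.6) and Glul (16.1). The range of Gpt2 ran through those of the other 3, and Glul lay wholly below Glud1 and Got1. Gpt (6.70) and Slc1a5 (5.24) came after these and overlapped each other, with Gls2 at 0.653. Glul and Slc1a5 thus went from the top 2 positions per length in benign tissue to the sixth and the eighth in tumors, and Got2 went from the third to the first. The third place rested on benign samples 3, 4 and 6: in benign samples 1, 2 and 5, Got2 (53.1) came sixth, after Glul (333), Slc1a5 (300.5), Glud1 (68.8), Gpt2 (61.6) and Gpt (59.0), with its range overlapping those of the last 3, and Got1 (11.1) came eighth.

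Promoter windows in RefSeq matched 6 of the 9 genes by symbol (GRCm38.p6). The 250 bases before the start are printed for Glul, the member with the highest level per length in benign tissue, and for Got1, the member whose difference turned with the benign samples used. Capitals mark CCAAT boxes, as CCAAT or, on the other strand, ATTGG, and the GC box GGGCGG.
Glul, chr1:153899679-153899928, plus strand: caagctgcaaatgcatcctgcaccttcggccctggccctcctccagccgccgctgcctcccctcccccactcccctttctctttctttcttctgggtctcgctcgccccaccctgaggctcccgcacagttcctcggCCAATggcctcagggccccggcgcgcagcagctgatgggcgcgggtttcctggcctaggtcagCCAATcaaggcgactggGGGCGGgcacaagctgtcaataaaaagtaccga
Got1, chr19:43524606-43524855, minus strand: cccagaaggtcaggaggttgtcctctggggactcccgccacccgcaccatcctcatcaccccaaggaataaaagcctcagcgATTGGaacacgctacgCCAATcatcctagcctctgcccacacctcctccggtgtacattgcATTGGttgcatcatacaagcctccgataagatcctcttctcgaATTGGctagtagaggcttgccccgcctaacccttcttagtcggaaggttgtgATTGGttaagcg
Glul held 2 CCAAT matches and 1 GC box, and Got1 held 5 CCAAT matches and no GC box. Counted on both strands of the same 250 bases, CCAAT occurred in 33.8% and GGGCGG in 32.7% of 32851 promoter windows, and 5 or more CCAAT matches occurred in 70 of them (0.213%). Gpt2, Glud1 and Slc38a2 held 2, 3 and 1 GC boxes, and Got2 held 1 TATAAA match, a sequence in 12.4% of windows, although the GENCODE start of Got2 lies inside its RefSeq window. CACGTG (6.02% of windows), TGACGTCA (1.55%) and TGATGNAAT (0.816%), a sequence known from genes that answer amino acid shortage, matched in none of the 6. The reference is the C57BL/6J genome, while the mice had an FVB background. A match, or the lack of an exact match in these 250 bases, is a description of letters only.

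The wider set of genes that handle glutamine and glutamate comprised 60 genes in 5 lists, of which 57 were in the table and 51 were tested. In tumors 18 were higher and 23 lower, 35.3% and 45.1% against 28.2% and 34.8% of all genes, and 10 did not pass the test. Their median log2 fold change was -0.12. Without benign samples 3, 4 and 6 the counts were 19 higher and 16 lower of 52. These were 36.5% and 30.8%, against 26.7% and 28.7% of all genes in that fit. With the muscle and Ucp1 covariates the counts were 13 higher and 14 lower of 51. Those were 25.5% and 27.5%, against 21.9% and 26.3% of all genes.

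**Figure D5:**
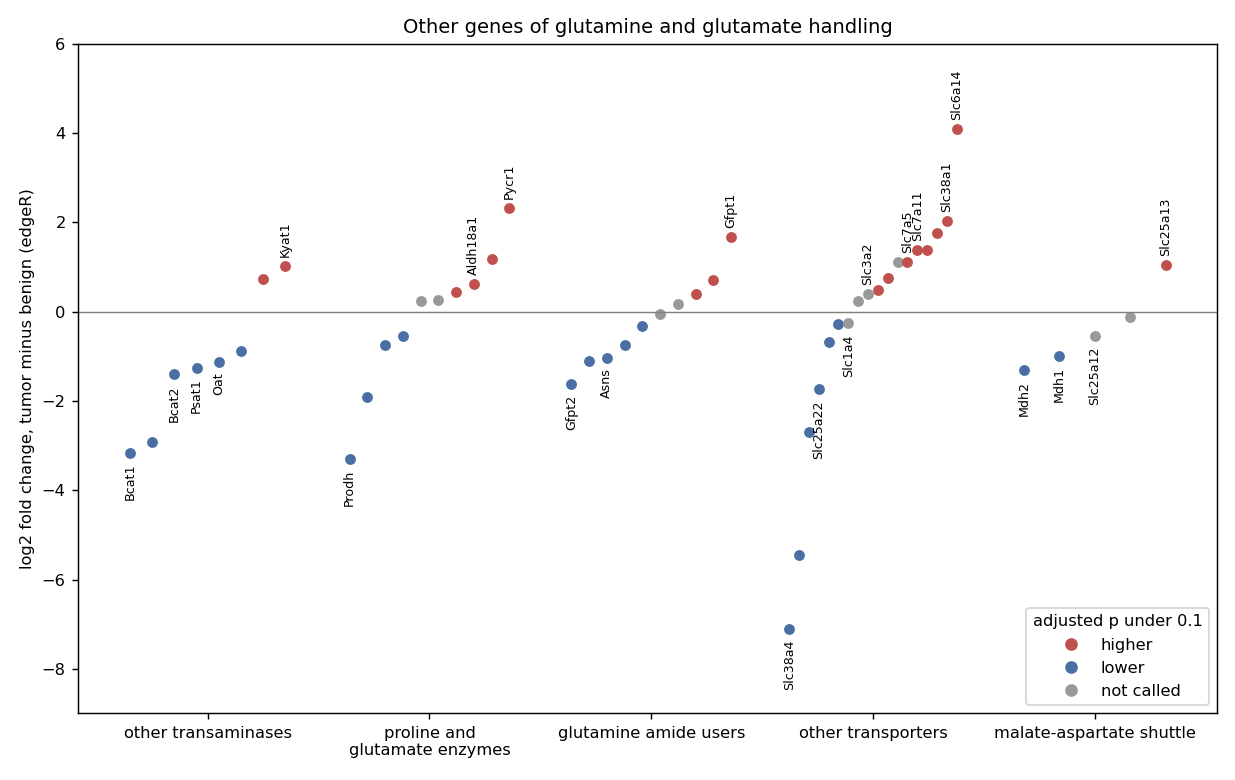
Log2 fold change, tumor minus benign, of 51 tested genes of glutamine and glutamate handling in 5 lists, in red where called higher, blue where called lower and grey where not called at an edgeR adjusted p under 0.1, with labels for genes named in the text. Most other transaminases lie below 0 (6 of 8 called lower), while 8 of 18 transporters were called higher and 6 lower. Of all genes tested, 28.2% were called higher and 34.8% lower.

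Other transaminases fell in 6 of 8 tested cases and rose in 2, 75% and 25% against 34.8% and 28.2% of all genes. Their median log2 fold change was -1.19. In each of the fits with the covariates and without benign samples 3, 4 and 6, 4 were lower and 2 higher (50% and 25%). Of all genes, 26.3% were lower and 21.9% higher with the covariates, and 28.7% and 26.7% without those 3 samples. Bcat1 and Bcat2, the cytosolic and mitochondrial branched-chain transaminases, fell, with log2 fold changes of -3.16 and -1.41 (edgeR adjusted p = 4.45e-05 and 7.50e-05). Psat1, the transaminase of serine synthesis, fell by 1.25 (edgeR adjusted p = 0.00347), from 132 ± 65.2 to 55.6 ± 14.5 CPM (SD, n = 6 each). Oat, ornithine transaminase, fell by 1.1 on the log2 scale (adjusted p = 0.0222), but it did not pass the test without benign samples 3, 4 and 6 (-0.71, adjusted p = 0.218) in edgeR. Kyat1, a kynurenine and glutamine transaminase, rose by 1.02 (adjusted p = 1.32e-06), with all tumors (58.6 to 69.7 CPM) above benign tissue (28.1 to 36.0 CPM). Of all genes tested, 14.7% showed such a separation in that direction.

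Of 10 tested enzymes that make or use proline and glutamate, 4 rose and 4 fell, with a median log2 fold change of 0.26. That is 40% each way, against 28.2% of all genes higher and 34.8% lower. With the muscle and Ucp1 covariates 3 were higher and 3 lower of 10 (30% each, against 21.9% and 26.3% of all genes). Without benign samples 3, 4 and 6, 5 were higher and 3 lower of 11 (45.5% and 27.3%, against 26.7% and 28.7%). The risers included Pycr1, which completes proline synthesis, at 7.74 ± 3.99 and 39.2 ± 14.7 CPM (SD, n = 6 each), a log2 fold change of 2.32 (edgeR adjusted p = 1.54e-04). Aldh18a1, the first enzyme of that synthesis, rose by 0.63 (adjusted p = 0.0912) but did not pass with the muscle and Ucp1 covariates (0.32), with upper-quartile scaling (0.62, adjusted p = 0.112), nor without tumor 4 or 5 or benign sample 4 or 6 (0.47 to 0.67). Prodh, which opens proline breakdown, fell by 3.31 on the log2 scale (adjusted p = 3.24e-06), from 58.6 ± 16.7 to 5.88 ± 3.24 CPM.

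Enzymes that take the amide nitrogen of glutamine rose in 3 and fell in 5 of 10 cases, with a median of -0.18. These were 30% and 50%, against 28.2% and 34.8% of all genes. With the covariates 2 were higher and 2 lower (20% each, against 21.9% and 26.3% of all genes, median 0.068). Without benign samples 3, 4 and 6, 2 were higher and 3 lower (20% and 30%, against 26.7% and 28.7%, median 0.040). Gfpt1 and Gfpt2, which start hexosamine synthesis, went opposite ways: Gfpt1 rose from 64.2 ± 1.55 to 204 ± 47.8 CPM (log2 fold change 1.67, edgeR adjusted p = 6.08e-07), and Gfpt2 fell from 27.6 ± 3.49 to 8.95 ± 2.32 CPM (-1.62, adjusted p = 5.21e-06; SD, n = 6 for each mean). Asns, asparagine synthetase, fell by 1.03 (adjusted p = 0.00949) with all samples and did not pass without benign samples 3, 4 and 6 (-0.61, adjusted p = 0.119).

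Other amino acid transporters rose in 8 and fell in 6 of 18 cases, with a median of 0.44. These were 44.4% and 33.3%, against 28.2% and 34.8% of all genes. With the muscle and Ucp1 covariates 4 were higher and 5 lower. Those were 22.2% and 27.8%, close to the 21.9% and 26.3% of all genes. Without benign samples 3, 4 and 6, 7 were higher and 5 lower of 18. These were 38.9% and 27.8%, against 26.7% and 28.7% of all genes in that fit. Slc38a1, a glutamine carrier related to Slc38a2, rose from 19.3 ± 13.4 to 78.4 ± 36.1 CPM (SD, n = 6 each), a log2 fold change of 2.02 (edgeR adjusted p = 0.00100). Slc6a14, a broad amino acid carrier, had the largest rise in the list, 4.10 (adjusted p = 5.44e-05), from 0 to 2.37 CPM in benign tissue against 12.7 to 37.9 CPM in tumors. Slc38a4, of the same family as Slc38a2, held up to 20.9 CPM in benign tissue and at most 1 count in a tumor, and was at least 28.3-fold lower there against a floor of 3 counts per library.

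Among the exchangers that trade glutamine or glutamate for other amino acids, Slc7a5, which exchanges glutamine for leucine, rose by 1.11 (edgeR adjusted p = 0.0549), and Slc7a11, which exchanges glutamate for cystine, rose by 1.38 (adjusted p = 0.0203) at no more than 6.39 CPM. Neither call held with the muscle and Ucp1 covariates (0.86 and 1.46), nor that of Slc7a5 without tumor 3 (0.98). Neither Slc3a2, their shared heavy chain (0.39, adjusted p = 0.142), nor Slc1a4, the closest relative of Slc1a5 (-0.26, adjusted p = 0.581), passed the same edgeR test, though Slc3a2 did without tumor 1, 4 or 6 (0.49 to 0.59), with total counts as scaling (0.49), and under both other gene filters (0.48 and 0.45). Slc1a4 held 9.08 to 22.2 CPM in benign tissue and 5.14 to 27.8 CPM in tumors, and these ranges overlapped. Slc25a22, a mitochondrial glutamate carrier, fell by 1.74 on the log2 scale (adjusted p = 1.17e-05).

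Among the 5 other genes of the malate-aspartate shuttle, 1 rose and 2 fell with all samples. These were 20% and 40%, against 28.2% and 34.8% of all genes. The balance turned to 3 higher and 1 lower without benign samples 3, 4 and 6 (60% and 20%, against 26.7% and 28.7%). With the covariates 2 were called, both higher (40%, against 21.9% of all genes). Mdh1 and Mdh2, the cytosolic and mitochondrial malate dehydrogenases, fell, with log2 fold changes of -1.0 and -1.32 (edgeR adjusted p = 0.00173 and 0.00453). Without benign samples 3, 4 and 6, Mdh1 fell by 0.45 (adjusted p = 0.0217) and Mdh2 stood at -0.45 (adjusted p = 0.152), and with the covariates neither passed (-0.34 and -0.29). Slc25a13, the aspartate-glutamate carrier citrin, rose by 1.06 (adjusted p = 0.0354), but did not pass with the covariates (0.59). Slc25a12, the aspartate-glutamate carrier of muscle and brain, turned in the same way as Got1: its value was -0.54 (adjusted p = 0.381) with all samples and 1.20 (adjusted p = 0.00135) without benign samples 3, 4 and 6. Slc25a11, the carrier of 2-oxoglutarate and malate, was not called with all samples (-0.12, adjusted p = 0.683) and was higher without those 3 samples (0.53, adjusted p = 0.00475) and with the covariates (0.59, adjusted p = 0.0395) in edgeR; it was named after its values were seen.

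For each member, the tested genes whose deviations from the group means ran most alike over the 12 samples were found by Pearson correlation among 10804 candidates with a mean of at least 10 CPM. As a description, Got1 was most like Pde4dip and Fhl3 (r = 0.99 each), and Got2 most like Srp68 and Aimp2 (r = 0.97 each). Slc1a5 was most like Asns (r = 0.93) and Enpp5 (r = 0.92), and Glul most like Miga2 (r = 0.95) and Pccb (r = 0.94). Slc38a2 was most like Sema3b (r = 0.93), and Glud1 most like Piezo2 (r = 0.95) and Cdip1 (r = 0.94). Gpt was most like Snx9 (r = 0.95) and Ak3 (r = 0.93), Gpt2 most like Lyrm9 (r = 0.97) and Rgcc (r = 0.96), and Gls2 most like Tsen34 (r = 0.88) and Dnajc24 (r = 0.87). The samples share their scaling, and benign samples 3, 4 and 6 share muscle transcripts, so these values describe these 12 libraries.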

How the data were processed

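Libraries were made from poly A RNA and read in pairs. The authors' Salmon quantification was deposited as estimated counts, summed to genes, in whole numbers and unscaled. The submitters' processing notes also name Trim Galore, DESeq2 and mm10; the annotation and tool versions are not given in the sources used here. It holds 16411 gene symbols, none with under 5 counts over the samples.

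Low genes were removed with filterByExpr of edgeR 4.0.16 (R 4.3.3; minimum count 10, minimum total 15), scaled by TMM and compared by its two-sided quasi-likelihood test on group alone, with Benjamini-Hochberg adjustment over 13191 genes and a threshold of 0.1, after the study's methods. CPM is on the TMM scale. Ratios within a sample used 0.5 added counts, log2 CPM 2 added counts, and the floor for lower bounds was 3 counts (0.411 CPM at the mean library size), for counting error only. The common biological coefficient of variation was 0.351. Single ratios were compared by exact permutation over every regrouping of 6 against 6, adjusted over 6 ratios and read at 0.05. Samples were grouped by their labels, which number each group from 1 to 6. Every pair of replicates differed by more than sampling noise (smallest chi-square per degree of freedom 12.5 in benign tissue and 16.4 in tumors), and each sample was taken as 1 mouse.

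The members, the gene and marker lists and the tests were chosen with earlier results of these data known. All 9 members are named, and of the pathway lists a set named in advance plus the called gene with the largest rise and fall in each list. Gene positions and lengths came from GENCODE M21 on GRCm38, matched by symbol, and the authors' annotation may differ. On simulated tumor and benign counts (13143 genes tested, 200 changed), edgeR recovered 56% of the changed genes and 100% of those changed by a log2 fold of 2, with 5.08% of calls false. The simulation gave every gene the same dispersion and changed few genes, whereas 63% of genes were called in these data. Its rates therefore need not hold here. Alternatives were DESeq2 1.42.0, other scalings and filters, a threshold of 0.05, a replicate block, covariates for muscle score and Ucp1, and leaving out samples. The directional kit's strand was not given for the counting, so antisense reads cannot be told apart. Some genes of the lists are counted in their totals but not reported by name here.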

Additional observations from a re-analysis of the deposited data

Results flagged for a closer look

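Dixon's test of the most distant sample was run on 30 groups of 6 samples, and chance passes about 1 in 20 of them. It marked tumor 5 as far above the other 5 tumors in 2 of these. For Slc38a2 the gap from tumor 5 (412 CPM) to the next tumor (202 CPM) was 0.800 of the whole tumor range. For Slc1a5 the gap from tumor 5 (21.9 CPM) to the next (14.3 CPM) was 0.703, and both were past the 95% critical value for 6 samples. Tumor 5 was the highest tumor for 3 of the 9 members, for 18 of 51 pathway genes and for 26.0% of all genes tested, and tumor 1 for 3, 19 and 18.4%. Without tumor 5, Slc1a5 kept its call and Slc38a2 stood at 0.12 on the log2 scale.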

How the results depend on the processing

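Of 862 values recomputed under an alternative, 817 kept their direction and side of the threshold, or stayed within 1.5 times the main count. The 5 members lower in tumors were lower in every fit run, with Gls2 as a sixth when benign sample 6 was left out. The number of members higher was 2 with the muscle and Ucp1 covariates, 2 without benign samples 3, 4 and 6, 0 at a threshold of 0.05, and 0 to 2 on leaving out single samples. At 0.05, 0 members were higher in the main edgeR fit (adjusted p = 0.0666 for Got2, 0.65), against 1 at an unadjusted p under 0.05. DESeq2 gave an adjusted p of 0.0326 for Got2. In other edgeR fits it was 0.0265 with total counts, 0.0399 and 0.0446 under the other filters and 0.0498 with the replicate block. It was 2.08e-04 with the covariates and 4.43e-04 without benign samples 3, 4 and 6. Upper-quartile scaling gave 0.0555, and leaving out single samples gave 0.00829 to 0.124. Got1 turned to 1.5 with the covariates and 1.25 without benign samples 3, 4 and 6, and Slc25a12 to 1.42 and 1.20. Pathway genes lower in tumors numbered 14 with the covariates (27.5%, against 26.3% of all genes). With group alone they numbered 23 (45.1%, against 34.8% of all genes). The cause of these changes was not tested. Leaving out single samples, log2 values ranged from 0.58 to 0.90 for Got2, -0.83 to -0.24 for Got1, 0.12 to 0.50 for Slc38a2, -0.64 to -0.31 for Gls2 and -1.09 to -0.68 for the Got1/Got2 ratio.

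Samples of the same number did not deviate together (r from -0.12 to 0.10), and the labels state no pairing. With the replicate block, 1 member was higher and 5 lower, with Got2 at 0.79, Glul at -4.78 and Got1 at -0.12. In that fit 17 pathway genes were higher and 22 lower, 33.3% and 43.1% against 26.3% and 32.1% of all genes. Gls2 rests on 7 to 33 counts per sample, and Slc38a4 on at most 1 count in a tumor.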
